A study of Mus musculus with 502 samples.

Results

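The cells described here are kidney immune cells that carry reads of complement C1q and many other genes. A cell was a member where it had at least 5 raw counts on each of C1qa and C1qb, fewer than 5 on the T cell gene Cd3e and on the B cell gene Cd79a, and at least 1 count on 1500 or more genes. The rule took 84 of the 502 sequenced cells. Because C1qa, C1qb and the number of genes chose the cells, their values are given as a description and support nothing else.

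The study asked whether a kidney can be kept cold and intact before it is dissociated for single-cell sequencing. Kidneys of outbred CD1 wild type mice about 3 weeks old were harvested without perfusion and were either dissociated fresh or kept whole in HypoThermosol-FRS solution at 4 °C for 6 h or for 1, 2, 3 or 4 days and then dissociated. Live singlet cells (negative for propidium iodide, positive for Cd45) were sorted into wells, full-length cDNA was made with a procedure adapted from SmartSeq2, and only cells with enough cDNA were sequenced. For each timepoint both kidneys (fresh to day 2) or halved kidneys (day 3 and day 4) of 1 mouse were combined. Cell labels also carry a code, read here as a library pool and named pool A (IM793), pool B (IM834) or pool C (IM790). The members were 7 fresh, 5 at 6 h and 14 at day 2 in pool A, 8 fresh, 17 at day 1 and 30 at day 3 in pool B, and at day 4 there were 2 in pool C and 1 in pool B. The labels do not tie cells to animals, and each timepoint in a pool therefore counts as at most 1 sample however many cells it holds. No test or p-value was made from cells, counts of genes past a fixed fold describe these cells alone, and animal, pool and time cannot be told apart.

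Macrophages of the kidney lie between the tubules, take up debris and immune complexes, and present peptides on MHC class II. C1q is the recognition part of the classical complement pathway, built from the chains of C1qa, C1qb and C1qc, and tissue macrophages are a main source of it. Macrophages also hold immediate early, chemokine and heat shock genes that can be induced within minutes to hours.

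The C1q genes lie side by side on the minus strand of mouse chromosome 4 (GRCm38), with C1qa at chr4:136895917-136898803, C1qb at chr4:136880129-136886187 and C1qc at chr4:136889804-136893065. The 250 bases before the first listed start site are shown for C1qb (chr4:136886201-136886450) and C1qc (chr4:136892915-136893164), because members were chosen on C1qb while C1qc had no part in the rule. Both are from RefSeq promoters of GRCm38.p6, minus strand. The gene positions are those of GENCODE, and the RefSeq start of C1qc lies inside the GENCODE gene, so that part of its window overlaps the gene as placed above. Capitals mark a match on either strand to GAGGAAG, a core of the sites of PU.1, the factor of the myeloid lineage that Spi1 encodes.
C1qb: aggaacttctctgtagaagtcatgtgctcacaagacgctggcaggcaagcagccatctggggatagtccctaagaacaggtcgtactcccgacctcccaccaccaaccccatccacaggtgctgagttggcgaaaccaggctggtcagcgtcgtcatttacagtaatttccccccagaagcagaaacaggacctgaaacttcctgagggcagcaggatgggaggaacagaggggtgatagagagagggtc
C1qc: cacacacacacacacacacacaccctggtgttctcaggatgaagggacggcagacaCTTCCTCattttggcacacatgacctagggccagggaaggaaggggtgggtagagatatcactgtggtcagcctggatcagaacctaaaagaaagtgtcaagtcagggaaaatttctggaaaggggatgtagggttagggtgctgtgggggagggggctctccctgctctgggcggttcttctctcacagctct
The C1qc window held 1 match, on the opposite strand, and the C1qb window held 0. Of 32851 mouse promoters of this length, 3486 (10.6%) held a match. Spi1 itself was read in 91.7% of the members.

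Members had 123562 to 1390599 counts on genes, with a median of 767344, and 1576 to 4521 genes with a count, with a median of 2198. The member nearest to the limit had 1576 genes, and the C1q cell nearest to it from below had 1457. Together, 38 C1q cells had fewer genes than the limit, with a median of 1080.5 genes and 462820 counts. Their place among the timepoints was uneven. None was seen among the fresh or 6 h cells, 1 was from day 2, 4 were from day 1, 24 from day 3 and 9 from day 4 of pool B. The lowest count of C1qa or C1qb in a member was 17, and 3 further cells met every other condition with 1 to 4 counts on the lower of the pair. Another 3 cells were left out for their Cd3e or Cd79a counts. The sequenced cells each carry their own library code, with 502 different codes in 502 cells, and doublets were not called.

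**Figure D1:**
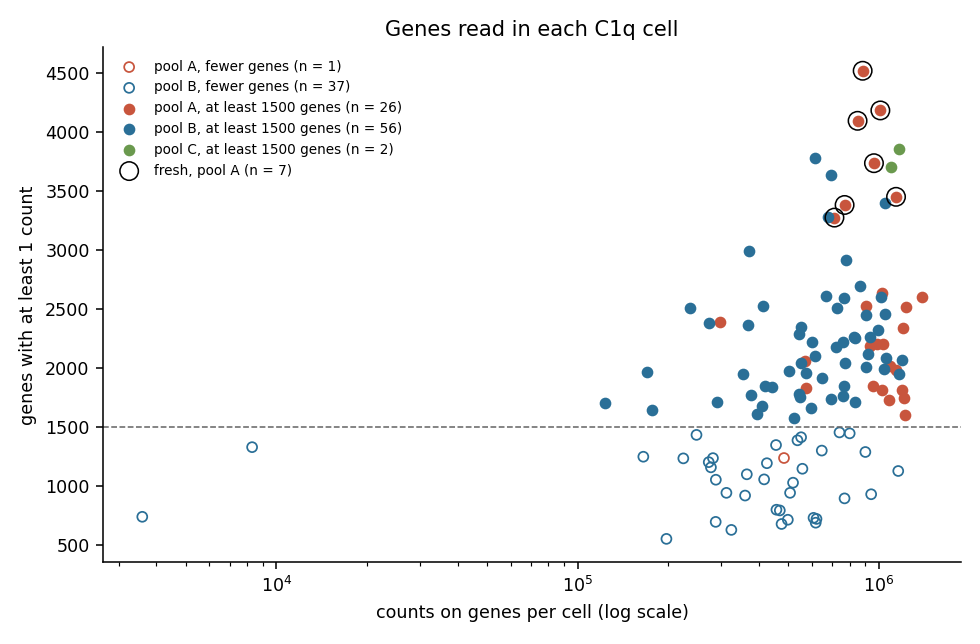
Each point is 1 cell with at least 5 counts of C1qa and of C1qb, placed by its counts on genes (x axis, log scale) and by its genes with at least 1 count (y axis), with pools in different colours and the fresh cells of pool A ringed. The ringed cells sit between 3277 and 4521 genes, above the 1576 to 2609 genes of the fresh members of pool B.

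The fresh members of the pools differed in how many genes were read. Those of pool A had 3277, 3738 and 4521 genes at the lowest, the median and the highest, against 1576, 2221 and 2609 in the fresh members of pool B, and the ranges did not overlap. The other main groups had medians of 2392 genes after 6 h, 2002 on day 2, 2351 on day 1 and 2043 on day 3, and single members reached into the range of the fresh members of pool A, up to 3786 genes on day 1 and 3402 on day 3. After each cell was thinned to 200000 counts, which left 81 members, the fresh members had 2857 to 3993 genes in pool A and 1427 to 2354 in pool B, and the ranges still did not overlap. The pools also differed in the share of counts on Rn18s.rs5, a gene of 18S ribosomal RNA, whose group medians were 3.11 to 4.34% in pool A and 6.81 to 8.54% in the main groups of pool B. The share on mitochondrially encoded genes had medians of 2.36 to 3.19% in the 6 main groups. Counts over all genes and over most lists that follow are therefore also given against the fresh members of the other pool. So are the genes described at most length. This comparison was added after seeing the data. The other genes and lists are given against their own pool alone.

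The mice differed in their sex-linked genes too. Xist, the long RNA of the inactive X chromosome, was read in 7 of 7 fresh members, 4 of 5 at 6 h and 10 of 14 at day 2 in pool A. In pool B it was read in 1 of 8 fresh members, 15 of 17 at day 1 and 0 of 30 at day 3. Genes of the Y chromosome gave the other picture, with reads in 6 of 8 fresh members and 14 of 30 at day 3 of pool B, 1 of 17 at day 1, and 0 of the members in pool A. At day 4 both members of pool C had Xist and no Y gene, and the single member of pool B had a read of each. The fresh and day 1 members of pool B thus differed in their sex-linked reads, and the part of that difference in the results below was not tested.

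Members made up 9.62% of the fresh cells (5.48 to 15.4%, exact binomial interval at 95%) and 6.58% of the cells kept for 6 h (5 of 76, 2.17 to 14.7%). Their share was 22.7% on day 1 (17 of 75, 13.8 to 33.8%), 17.9% on day 2 (14 of 78, 10.2 to 28.3%), 36.6% on day 3 (30 of 82, 26.2 to 47.95%) and 8.57% on day 4 (3 of 35, 1.80 to 23.1%). The fresh share was alike in both pools, at 9.33% (3.84 to 18.3%) in pool A and 9.88% (4.36 to 18.5%) in pool B. The interval of day 3 lay above those of 6 h and of the fresh cells, joined or by pool. The fresh and day 4 shares join cells of different pools. These intervals cover counting error only, and with at most 1 sample per timepoint and pool they say nothing of the spread between mice. Among all C1q cells of a group, members were 100% of the fresh and 6 h cells, 93.3% of the day 2 cells, 80.95% of the day 1 cells, 55.6% of the day 3 cells and, at day 4, 10% (1 of 10) in pool B and 100% (2 of 2) in pool C.

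The macrophage label was borne out by genes that the rule did not use. C1qc was read in 100% of the members, Csf1r, the receptor of the growth factor that macrophages need, in 100%, and Apoe, a carrier of lipids, in 98.8%. Adgre1, which encodes the surface marker F4/80, was read in 86.9% of the members, Cx3cr1, the receptor of fractalkine, in 91.7%, Mrc1, the mannose receptor, in 79.8% and Stab1, a scavenger receptor, in 78.6%. In 92 cells that had Lyz2 reads but lacked C1q, the same genes were read in 29.3% for Adgre1, 38.04% for Cx3cr1, 3.26% for Mrc1 and 3.26% for Stab1, while Csf1r was read in 84.8%. Absence of reads in a cell can lie below what this depth detects.

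The other genes of macrophage identity were mostly present. Of 16 listed genes, 13 were read in at least 50% of the members, and the rarer ones were Mertk, a receptor for dying cells, in 16.7%, Itgam in 14.3% and Trem2, a lipid sensor, in 8.33%. The lists of lysosome genes (15 of 16 read in at least 50% of the members), MHC class II (6 of 8) and Fc receptors and adaptors (5 of 6) were also well covered. Scavenger and perivascular macrophage genes were not, with 3 of 12 in at least 50%. Lyve1, Folr2 and Timd4, markers of some long-lived resident macrophages, were read in 3.57%, 3.57% and 4.76% of the members, and Cd163 in 11.9%. Ccr2, the chemokine receptor of monocytes, was read in 15.5% and Ly6c2 in 1.19%.

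**Figure D2:**
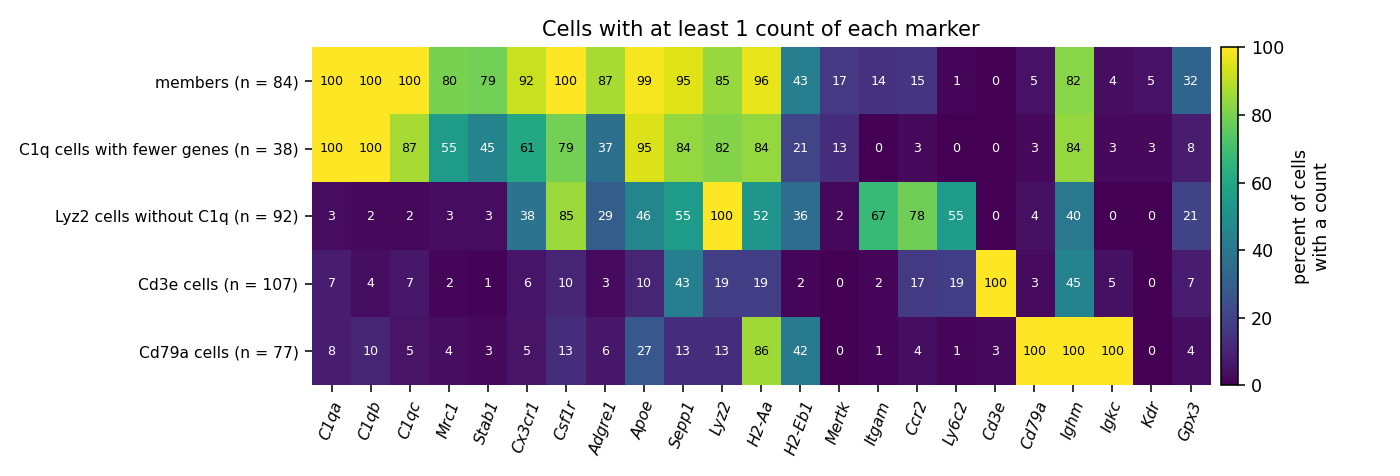
The colour of each field gives the percent of cells with at least 1 count of a marker (columns) in each class of cells (rows). Members carry Csf1r and Cx3cr1 in 100% and 91.7% of cells, and Mrc1 and Stab1 reach 79.8% and 78.6% in members against 3.26% in the Lyz2 cells without C1q.

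Markers of other cells were at 0 in most members, with exceptions. None of 8 T cell genes was read in more than 2.38% of the members, Cd3e was at 0 in all 84, and Cd79a had at most 3 counts in 4 members. The 4 erythroid genes were read in at most 2.38% and the 3 podocyte genes in none. Of the 8 proximal tubule genes, Gpx3 was read in 32.1% and Fxyd2 in 25%, and their summed level reached at most 3035 rpm in a member, where rpm is a gene's counts scaled to a total of 1000000 in the cell. The summed level was highest in members from the fresh, day 1, day 3 and pool C groups, and its part in the results was not tested. The 6 neutrophil genes were read in at most 15.5% each, with a summed level of up to 5069 rpm in a fresh member of pool A, where 4 of 7 had a read, and 0 in the fresh members of pool B. The 7 monocyte genes reached 4724 rpm in a 6 h member, through Ccr2. Naaa and Batf3, listed with dendritic cells, were read in 35.7% and 26.2%. All fresh members of pool A had a Naaa read, while 4 of 5 at 6 h and 10 of 14 at day 2 had none. In pool B 7 of 8 fresh, 13 of 17 day 1 and 18 of 30 day 3 members had none.

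Ighm, the heavy chain of IgM, was the B cell gene read in most members, 69 of the 84 (82.1%), with a median of 923 rpm. Cd79b, a part of the B cell receptor, was read in 19 members (22.6%), at up to 762 rpm, and in 4.67% of the Cd3e cells. By pool, Ighm was read in 18 of 26 members (69.2%) in pool A and 51 of 56 (91.1%) in pool B. In Cd3e cells the share with Ighm was 47.8% and 43.1% in the same pools, in the Lyz2 cells without C1q it was 39.7% and 37.5%, and in Cd79a cells it was 100% in both, with medians of 8221 and 5795 rpm. Of the 38 C1q cells with fewer genes, 84.2% had an Ighm read. The members thus sat above the Cd3e cells and the Lyz2 cells without C1q, but not above the other C1q cells, in the share of cells with an Ighm read, while Igkc, the kappa light chain, was read in 3 members and Ighd in 4. Counting ignored the strand, and whether these reads are of members' own RNA was not tested.

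C1q reads in lymphocytes give the background for C1q itself. At least 5 counts on both C1qa and C1qb were found in 1 of the Cd3e cells (0.935%) and in 3 of 77 Cd79a cells (3.90%), whose median depths were 708743 and 727473 counts.

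C1qc, which had no part in the rule, was read at 3588, 4461 and 6680 rpm (lowest, median and highest) in the fresh members of pool A and at 1409, 4244 and 8789 rpm at day 2. The 5 members at 6 h had 2852, 2990, 4567, 5141 and 7699 rpm of C1qc. In pool B, C1qc was at 1527, 3289 and 6588 rpm fresh, 16.9, 2080 and 3806 rpm at day 1, and 975, 2720 and 4656 rpm at day 3. All groups overlapped. The log2 ratio of summed counts to the fresh members of the same pool was 0.13 for 6 h, 0.05 for day 2, -0.64 for day 1 and -0.26 for day 3, and none passed 2-fold. Against the other pool's fresh members C1qc was lower at day 1, by a log2 ratio of -1.04. C1qa had medians of 3914, 4172, 4236, 3387, 2168 and 2482 rpm over the fresh members of pool A, 6 h, day 2, the fresh members of pool B, day 1 and day 3.

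Correlations among the C1q genes are given as a description, since C1qa and C1qb chose the cells. Across the 84 members the Spearman correlation was 0.65 for C1qa with C1qb, 0.64 for C1qa with C1qc and 0.61 for C1qb with C1qc, and within pool B it was 0.53, 0.45 and 0.45. The middle 50 percent of members had a log2 ratio of C1qa to C1qb from -0.81 to -0.14 and of C1qa to C1qc from -0.52 to 0.25. These ratios hold the lengths of the transcripts and are given for their spread alone. Cells share a pool and differ in depth, so all correlations here are descriptions, with no p.

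Mrc1, Stab1 and Cx3cr1 were at 0 in some members, unlike C1qc. Mrc1 was read in 7 of 7 fresh members of pool A at 140.5 to 2739 rpm, with a median of 682, and in 8 of 8 of pool B at 203.6 to 7498 rpm, with a median of 836. The preserved groups had Mrc1 medians of 575 (6 h), 1049 (day 2), 706 (day 1) and 449 rpm (day 3), with cells at 0 in each of these. Mrc1 did not pass 2-fold in any comparison of preserved with fresh members of the same pool. Its Spearman correlation with Stab1 was 0.27 and with Cx3cr1 0.17, too weak to read anything from in sparse counts.

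Cx3cr1 was higher in preserved members of pool B. The fresh members there had 200, 944 and 7003 rpm of Cx3cr1 at the lowest, the median and the highest, the day 1 members 0, 3445 and 10729 rpm and the day 3 members 0, 2265 and 14548 rpm. The groups overlapped, with 3 of 17 day 1 members and 4 of 30 day 3 members above the highest fresh member. The log2 ratio of summed counts was 1.27 at day 1 and 1.02 at day 3, and the latter was 0.91, short of 2-fold, without the members that had a Cd79a read. In pool A, Cx3cr1 was at 0, 942 and 2951 rpm fresh and 0, 1831 and 4829 rpm at day 2, and the 6 h members had 33.7, 689, 1354, 4198 and 4542 rpm, with ratios of 1.30 and 1.29 that did not pass because the medians lay closer. With the fresh members of the other pool as the reference, the log2 ratio of Cx3cr1 was 0.69 for 6 h, 0.69 for day 2, 1.87 for day 1 and 1.62 for day 3.

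To compare groups over all genes, the counts of the members of each group were summed, and a gene passed 2-fold only where both the ratio of these sums and the difference of the medians over cells reached 2-fold in the same direction. In pool A, 6 h against fresh gave 297 genes higher and 960 lower of 2735 looked at (10.9% and 35.1%). The day 2 members against the same fresh members gave 920 of 2664, of which 801 were lower (30.1%) and the rest higher (4.47%). In pool B, day 1 against fresh gave 471 of 1646, of which 210 were higher (12.8%) and the rest lower (15.9%). The higher genes were 44.6% of those past 2-fold there, 51.1% with TMM, a scaling by trimmed means, and 54.3% without the member of most counts of a gene on each side, so which direction held more genes turned with the setting. Day 3 against the same fresh members gave 378 of 1539, of which 250 were lower (16.2%) and the rest higher (8.32%), and the higher genes were 33.9% of those past 2-fold, or 44.8% where the totals were scaled by TMM. The fresh members of pool B against those of pool A, with no preservation in either, gave 282 higher and 1007 lower of 2806 (10% and 35.9%). Among the preserved members, day 2 against 6 h gave 456 of 1412, with 313 lower (22.2%) and the rest higher (10.1%), a share of 31.4% higher that TMM scaling moved to 48.8%. Day 3 against day 1 had the fewest, with 76 higher (5.78%) and 11.1% lower of 1315.

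**Figure D3:**
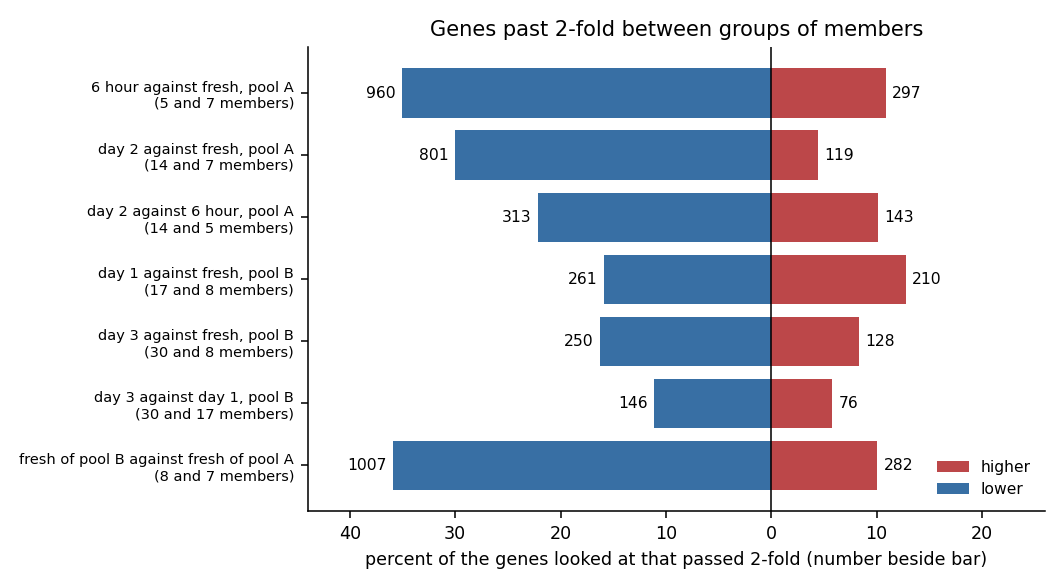
Bars give the percent of the genes looked at that passed 2-fold higher (right) or lower (left) in the first group named than in the second, with the number of genes beside each bar. The pair of fresh groups reaches 1007 genes lower, and the comparison of day 3 with day 1 has the fewest, with 76 higher.

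These counts rest on few cells. Of a gene's summed counts, the member with most of them held a median of 61.5% among the 6 h members and 22.02% among those of day 3. Against the fresh members of pool B, 6 h gave 464 genes higher and 414 lower of 1770, or 26.2% and 23.4%, and day 2 gave 283 and 337 of 1613, or 17.5% and 20.9%. With that reference higher genes outnumbered lower ones at 6 h, and lower genes still outnumbered higher ones at day 2. With the fresh members of pool A as the reference, day 1 gave 1079 genes, 887 of them lower (33.1%), and day 3 gave 924, 808 of them lower (30.7%). The comparisons of a pool share their fresh members and are not independent of each other.

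Among the heat shock genes, 1 pair was higher at 1 day and later. Hspa1a and Hspa1b, which encode inducible Hsp70 chaperones, were higher at day 2 in pool A and at day 1 and day 3 in pool B, and were the only genes of the 12 listed to be higher in each of these. They are a near-identical pair on chromosome 17 (GRCm38, chr17:34969190-34972156 and chr17:34956436-34959238, minus strand), so reads may have been split between them or lost, and their levels are best read as one. The 250 bases before their start sites (RefSeq, GRCm38.p6, minus strand, chr17:34972157-34972406 for Hspa1a and chr17:34959239-34959488 for Hspa1b) are shown because the pair moved together. Capitals mark a match on either strand to GAANNTTC, the core of a heat shock element.
Hspa1a: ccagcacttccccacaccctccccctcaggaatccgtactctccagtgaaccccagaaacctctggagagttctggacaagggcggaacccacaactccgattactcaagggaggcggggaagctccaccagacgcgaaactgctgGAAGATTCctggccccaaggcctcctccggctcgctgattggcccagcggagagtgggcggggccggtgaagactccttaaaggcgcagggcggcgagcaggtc
Hspa1b: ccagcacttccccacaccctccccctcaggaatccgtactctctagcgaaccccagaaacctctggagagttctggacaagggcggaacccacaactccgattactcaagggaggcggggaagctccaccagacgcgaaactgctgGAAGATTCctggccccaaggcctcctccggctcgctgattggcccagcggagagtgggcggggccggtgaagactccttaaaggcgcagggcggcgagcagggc
The windows were equal at 98.8% of their 250 bases, and each held 1 match, GAAGATTC. Such a match was in 2199 of 32851 promoters (6.69%) and in 4 of the 9 heat shock genes with a listed promoter. These were Dnaja1, Hspa1a, Hspa1b and Hspe1, of which the near-equal windows of the pair are not separate matches. Of the 10 cell cycle genes, 5 had a match as well, and a difference between these shares was not tested.

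Hspa1a was at 0, 75.8 and 714 rpm (lowest, median and highest) in the fresh members of pool A and at 0, 62.4 and 672 rpm in those of pool B. In the day 2 members it was at 0, 758 and 6340 rpm, in the day 1 members at 0, 1047 and 6981 rpm and in the day 3 members at 0, 963 and 8572 rpm. The 6 h members had 0, 63.97, 165.4, 213.8 and 783 rpm of Hspa1a and sat within or near the fresh range. Above the highest fresh member of their pool were 8 of the 14 day 2, 11 of the 17 day 1 and 19 of the 30 day 3 members, and the rest overlapped with the fresh members.

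The log2 ratio of summed Hspa1a counts to fresh was 0.19 for 6 h, 2.76 for day 2, 2.98 for day 1 and 3.24 for day 3. With the other pool's fresh members it was 0.45, 3.01, 2.73 and 2.98 in the same order, and the same groups passed 2-fold. Day 3 against day 1 gave 0.25. Hspa1b gave 0.54, 2.75, 3.66 and 3.81 against the fresh members of its own pool, with medians of 59.2 and 19.1 rpm in the fresh members of pool A and pool B and 807, 461 and 441 rpm in the day 2, day 1 and day 3 members. Across the 84 members the Spearman correlation of Hspa1a with Hspa1b was 0.96, and 0.98 within each pool.

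Other chaperones did not follow as a group. Of 11 listed heat shock genes looked at in pool B, 3 were higher and 0 lower at day 1 (beside 12.8% and 15.9% of all genes), and 3 were higher and 2 lower at day 3 (beside 8.32% and 16.2%); besides the pair, Hsp90aa1, the inducible Hsp90, was higher in both, with log2 ratios of 2.51 and 1.27. Hsp90aa1 was at 0, 193.4 and 901 rpm in the fresh members of pool B, 0, 1184 and 5428 rpm at day 1 and 0, 806 and 2241 rpm at day 3. With the fresh members of pool A, 5 of 11 were higher at day 1, Hsp90aa1 among them, and 3 of 10 at day 3 (the pair and Dnajb1), where Hsp90aa1 did not pass, beside 7.16% and 4.41% of all genes higher. At day 2 its median of 247.8 rpm was below the 531 rpm of the fresh members of pool A. Against those, Hspa1a and Hspa1b were higher and Hspa5 and Hsp90b1, chaperones of the endoplasmic reticulum, lower, 2 and 2 of 10 (beside 4.47% and 30.1% of all genes), and at 6 h none was higher and 2 were lower of 10 (beside 10.9% and 35.1%). Against the fresh members of pool B, 1 (Hspa1b) was higher and 1 lower of 10 at 6 h (beside 26.2% and 23.4%), and 2 were higher (the pair) and 2 lower of 10 at day 2 (beside 17.5% and 20.9%). The list's median log2 ratio was 0.85 for day 1, 0.38 for day 3, -0.07 for day 2 and -0.34 for 6 h, beside -0.12, -0.10, -0.31 and -0.30 over all genes looked at. Hspa8, the constitutive member, had medians between 1408 and 3158 rpm in the 6 main groups.

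Many immediate early genes were lower in the members of pool A after 6 h. Of 15 listed AP-1 and immediate early genes looked at, 9 were lower at 6 h (Fos, Fosb, Junb, Egr1, Egr2, Dusp1, Zfp36, Btg2 and Gadd45b) and 4 at day 2 (Fos, Fosb, Ier2 and Klf6), and none was higher, beside 35.1% and 30.1% of all genes lower, so that the day 2 share was not above that of all genes. The median log2 ratio of the list was -1.15 and -0.57. Set against the fresh members of pool B, the counts were 8 of 13 lower at 6 h and 5 of 13 at day 2, again with none higher, beside 23.4% and 20.9% of all genes lower.

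Fos, a subunit of AP-1 whose RNA appears within minutes of a stimulus, was at 0, 2688 and 12646 rpm in the fresh members of pool A. At 6 h 4 of 5 members had no Fos read and the other had 1727 rpm. At day 2, 7 of 14 had none, the median was 0.360 and the highest 11156 rpm. The groups overlapped, with 1 fresh member at 0 and reads in 1 member at 6 h and 7 at day 2. The log2 ratio of Fos was -3.62 at 6 h and -1.81 at day 2, and -3.81 and -2.01 against the fresh members of pool B.

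In pool B Fos was read in 8 of 8 fresh members at 1.54, 3376 and 12156 rpm, in 14 of 17 at day 1 at 0, 2624 and 23281 rpm, and in 24 of 30 at day 3 at 0, 987 and 22086 rpm. The log2 ratios were -0.03 and -0.39 and did not pass 2-fold. Dusp1, a phosphatase that turns off MAP kinases, did pass in this pool: it was at 1394, 7232 and 13935 rpm fresh, 0, 1309 and 18012 rpm in the day 1 and 0, 604 and 10242 rpm in the day 3 members, with log2 ratios of -1.10 and -1.83. Below the lowest fresh member were 9 of 17 day 1 and 18 of 30 day 3 members. Of the list in pool B, 2 were higher (Jun and Jund) and 2 lower (Ier3 and Dusp1) of 15 at day 1, near the 12.8% and 15.9% of all genes, and 5 of 13 were lower at day 3 (Atf3, Ier2, Ier3, Dusp1 and Zfp36), beside 16.2%. With the fresh members of pool A as the reference, 1 was higher and 1 lower of 17 at day 1 and 3 lower of 16 at day 3, below the 33.1% and 30.7% of all genes lower, and Dusp1 was in neither.

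Cytokine and chemokine genes were lower in pool A as well. Of 11 looked at, 8 were lower at 6 h (Ccl2, Ccl3, Ccl7, Ccl8, Ccl12, Cxcl1, Cxcl2 and Tnf) and 7 at day 2, beside 35.1% and 30.1% of all genes, and the list's median log2 ratio was -3.69 and -1.18. Set against pool B, 4 of 7 were lower at 6 h (Ccl2, Ccl3, Ccl12 and Cxcl2), and at day 2 3 were lower (Ccl2, Cxcl2 and Il1b) and 1 higher (Cxcl16), beside 23.4% and 20.9% of all genes lower. Cxcl2, a chemokine that draws neutrophils, was at 0, 1841 and 4282 rpm fresh in pool A, in 1 of 5 members at 6 h with 645 rpm, and at 0, 0 and 4147 rpm at day 2. In pool B Cxcl2 was at 0, 3797 and 7845 rpm fresh, 0, 778 and 4415 rpm at day 1 and 0, 3.31 and 7447 rpm at day 3. Its log2 ratio was -3.69 for 6 h, -2.09 for day 2, -1.18 for day 1 and -1.60 for day 3. With the other pool's fresh members it was -4.60, -3.00, -0.27 and -0.69, and the last 2 did not pass.

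Il1b, which encodes the inflammatory cytokine interleukin-1 beta, was lower in pool B after preservation. It was read in 6 of 8 fresh members of pool B at 0, 1329 and 8636 rpm, in 11 of 17 at day 1 at 0, 371 and 2230 rpm, and in 9 of 30 at day 3 at 0, 0 and 2939 rpm. The log2 ratio to fresh was -1.95 at day 1 and -3.05 at day 3, and day 3 against day 1 gave -1.10, all past 2-fold, although the last was -0.88 in thinned cells. With the fresh members of pool A the ratios were -1.63 and -2.73. In pool A the fresh members had 0, 1877 and 5134 rpm of Il1b, the 6 h members 0, 161.6, 1200, 1778 and 2459 rpm and the day 2 members 0, 161.2 and 8609 rpm, and neither comparison passed 2-fold, with a log2 ratio of -0.99 at day 2 that was -1.31 with the fresh members of pool B. Of the whole list in pool B, Cxcl2 and Il1b were lower and none higher of 7 looked at, at day 1 and at day 3, beside 15.9% and 16.2% of all genes lower. With the fresh members of pool A 6 of 11 were lower in both, beside 33.1% and 30.7%. Ccl3, a chemokine of macrophages, had medians of 955, 935 and 911 rpm in the fresh, day 1 and day 3 members.

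**Figure D4:**
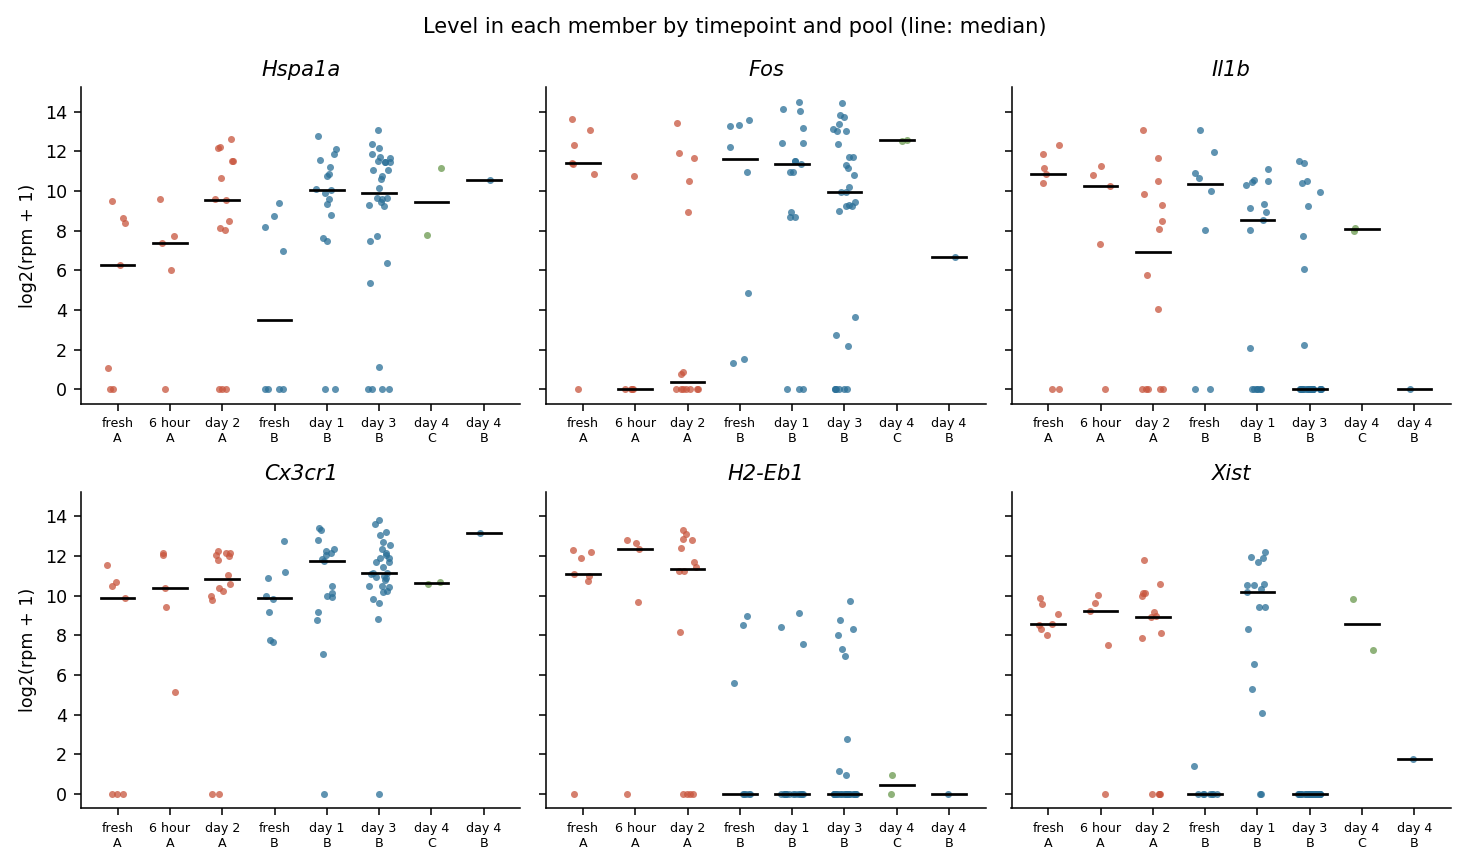
Each point is 1 member, the y axis of each panel is log2(rpm + 1) and the x axis the group by timepoint and pool, with a line at the median of the log values, for Hspa1a, Fos, Il1b, Cx3cr1, H2-Eb1 and Xist. Before the log, Hspa1a medians are 62.4 and 75.8 rpm in the fresh groups and 758 to 1047 rpm at day 1 to day 3, Il1b has a median of 0 at day 3, and H2-Eb1 reaches at most 848 rpm in the main groups of pool B.

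Immediate early and cytokine genes varied together across the members. With the mean of log2(rpm + 1) over a list as its score, the AP-1 list had group medians of 7.99 fresh, 2.47 at 6 h and 3.15 at day 2 in pool A and 6.58 fresh, 6.41 at day 1 and 5.14 at day 3 in pool B. The cytokine list had 6.04, 1.10 and 2.40, then 3.04, 3.23 and 2.72. The Spearman correlation of the AP-1 score with the cytokine score was 0.72 (n = 84), 0.82 in pool A and 0.64 in pool B, and with the heat shock score 0.66, 0.71 and 0.62. Both rest on cells that differ in how many genes were read, with which the cytokine score had a correlation of 0.55. Single genes of these lists paired likewise, Fos with Egr1 at 0.75, Fos with Dusp1 at 0.74 and Ccl3 with Ccl4 at 0.77. C1qa with Fos was at -0.38.

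**Figure D5:**
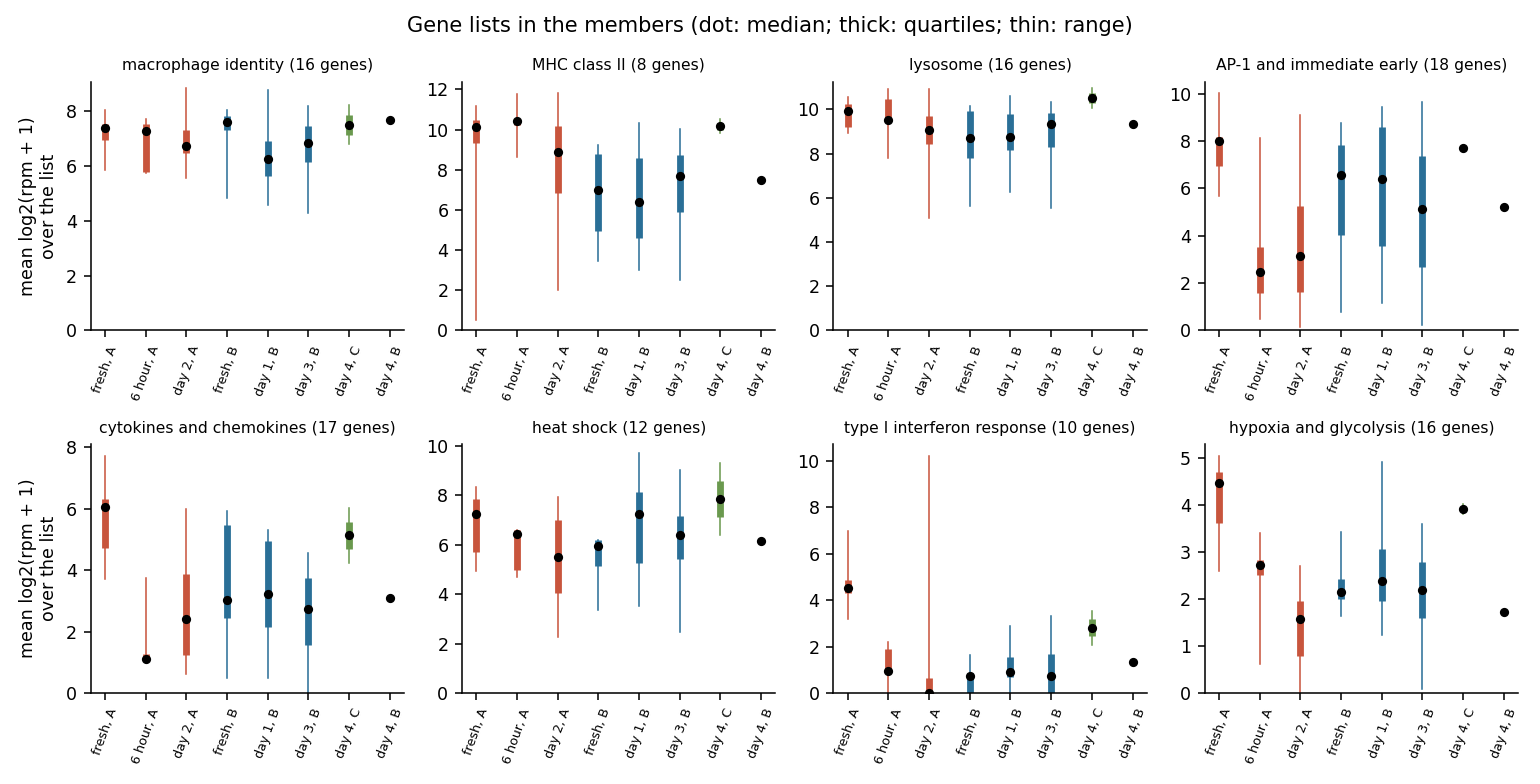
The y axis of each panel is the mean of log2(rpm + 1) over the genes of a list in 1 member and the x axis the group; dots are medians, thick lines quartiles and thin lines the whole range, for 8 lists. The AP-1 list has medians of 2.47 at 6 h and 3.15 at day 2 against 7.99 in the fresh members of pool A, and the type I interferon list has 4.51 there and at most 0.96 in the other main groups.

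Of 8 class II genes, 3 were lower in the fresh members of pool B than in those of pool A (H2-Eb1, H2-DMb2 and Ciita), beside 35.9% of all genes, and 0 were higher. H2-Aa, H2-Ab1 and Cd74, which encode the chains of the main class II molecule and the invariant chain, were read in 96.4%, 96.4% and 98.8% of the members. H2-Aa was at 0, 5566 and 9371 rpm in the fresh members of pool A and at 546, 5048 and 14648 rpm in those of pool B, with medians of 12211 (6 h), 8446 (day 2), 3924 (day 1) and 8177 rpm (day 3). H2-Eb1, the beta chain of the other class II molecule (chr17:34305867-34316674, plus strand, GRCm38), was read in 20 of 26 members of pool A (76.9%, exact interval 56.4 to 91.03%) and in 15 of 56 of pool B (26.8%, 15.8 to 40.3%).

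By group, H2-Eb1 was at 0, 2208 and 5039 rpm fresh, 0, 805, 5168, 6338 and 7079 rpm in the 6 h members and 0, 2615 and 10244 rpm at day 2 in pool A. In pool B the highest values were 497 rpm fresh, 556 rpm at day 1 and 848 rpm at day 3, and the medians were 0. The fresh members of the pools differed by a log2 ratio of -4.81 in H2-Eb1, with pool B the lower. In B cells, which also carry class II, H2-Eb1 was read in 46.2% of the Cd79a cells in pool A, at up to 6272 rpm, and in 36.8% in pool B, at up to 1963 rpm. In the Lyz2 cells without C1q it was read in 39.7% in pool A, at up to 9406 rpm, and in 20.8% in pool B, at up to 357 rpm, so the highest levels were in pool A in these cells as well. Pool and animal cannot be told apart here. Between preserved and fresh members of the same pool, 2 of 8 class II genes were higher at 6 h (H2-DMb1 and H2-DMb2, beside 10.9% of all genes), 1 of 8 was lower at day 2 (Ciita, the master regulator of class II, beside 30.1%), and 0 of 6 passed 2-fold at day 1 or day 3. With the other pool's fresh members 5 of 8 were higher at 6 h and 3 of 7 at day 2 (H2-Eb1, H2-DMb1 and H2-DMb2), beside 26.2% and 17.5% of all genes, and 3 of 8 were lower at day 1 and at day 3, beside 33.1% and 30.7%.

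Axl, a receptor that recognises dying cells, was higher in every preserved group that was compared than in the fresh members of its pool. It was at 0, 258.6 and 897 rpm fresh and 0, 2085 and 4840 rpm at day 2 in pool A, and the 6 h members had 478, 896, 1371, 3359 and 4377 rpm. Above the highest fresh member were 3 of 5 at 6 h and 10 of 14 at day 2. In pool B Axl was at 0, 40.7 and 1083 rpm fresh, 0, 316 and 3195 rpm at day 1 and 0, 747 and 2851 rpm at day 3, where 6 of 17 and 11 of 30 lay above the highest fresh member. The log2 ratios were 2.62, 2.46, 1.66 and 1.34. Against the other pool's fresh members they were 2.88, 2.72, 1.41 and 1.08, of which day 1 did not pass because the medians lay closer. Axl was the 1 gene higher of its list of scavenger and perivascular macrophage genes in each of these groups against its own pool. That was of 6 looked at in pool A and 4 in pool B, beside 10.9%, 4.47%, 12.8% and 8.32% of all genes. Msr1 and Timd4 were lower at 6 h and day 2 and Msr1 at day 1, beside 35.1%, 30.1% and 15.9%. Against the other pool's fresh members, Axl alone of 4 was higher at 6 h and day 2, beside 26.2% and 17.5% of all genes. At day 1, 0 of 6 were higher, and at day 3, 2 were (Pf4 and Axl), beside 7.16% and 4.41%. Lower there were 0, 1 (Msr1), 2 (Timd4 and Msr1) and 1 (Timd4), beside 23.4%, 20.9%, 33.1% and 30.7%.

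Lysosome genes mostly did not pass 2-fold. Of 16 listed, 3 were higher at 6 h, 3 higher and 1 lower (Ctsl) at day 2, 1 higher at day 1 (Psap), and 3 higher and 1 lower (Ctsd) at day 3, beside 10.9%, 4.47%, 12.8% and 8.32% of all genes higher. With the other pool's fresh members 4 were higher after 6 h and on day 2, none on day 1, and 3 on day 3, where Ctsd was again lower, beside 26.2%, 17.5%, 7.16% and 4.41% of all genes higher. Ctsd, a cathepsin, was read in 4 of 8 fresh members of pool B, 12 of 17 members of day 1 and 11 of 30 of day 3, with medians of 308, 354 and 0 rpm. Ctsb and Ctss, abundant cathepsins, were read in 100% of the members.

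C3ar1 and C5ar1, receptors of complement fragments, were higher at day 3 in pool B. C3ar1, the receptor of C3a, was at 0, 329 and 2546 rpm fresh, 0, 64.3 and 2431 rpm at day 1 and 0, 970 and 4503 rpm at day 3 in pool B, with a log2 ratio of 1.04 to fresh and 1.41 to day 1. C5ar1, the receptor of C5a, passed 2-fold as well, and the pair were 2 of the 3 complement genes looked at, beside 8.32% of all genes higher. In pool A C3ar1 had medians of 910 rpm fresh, 302 at 6 h and 522 at day 2 and did not pass. There 4 of 7 complement genes were lower at 6 h (Cfp, Cfb, C2 and C4b) and 0 higher, beside 35.1% of all genes lower. At day 2, 3 were lower (Cfb, C2 and C4b) and C5ar1 higher, beside 30.1% of all genes lower. Against the fresh members of pool B, 0 of 3 were lower at 6 h and at day 2, beside 23.4% and 20.9%. C5ar1 was again higher at day 2 with that reference, beside 17.5% of all genes higher. When the fresh members of pool A were the reference, neither receptor passed at day 3, where 0 of 7 complement genes were higher and 3 lower (beside 4.41% and 30.7% of all genes), and at day 1 C3ar1 was among 5 of 7 lower (beside 33.1%). Lpl, lipoprotein lipase, was higher at day 3 than at day 1, with medians of 635 and 0 rpm.

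Interferon and glycolysis genes differed between the fresh groups and were higher in pool A. The highest interferon score of any member, 10.2, was that of a day 2 member, against 3.20 to 6.97 in the fresh members of pool A. The glycolysis scores of the latter, 2.61 to 5.05, overlapped with those of every other main group, and the day 4 members of pool C had 3.82 and 4.02. Bst2, an interferon-induced membrane protein, was read in 7 of 7 of them at 86.1 to 306 rpm, with a median of 149.5, in 0 of 5 members of 6 h and 3 of 14 of day 2 in pool A, and in 0 of 8 fresh, 4 of 17 of day 1 and 7 of 30 of day 3 in pool B. Of 5 type I interferon genes looked at, 4 were lower at 6 h and 3 at day 2 than in these fresh members, and 5 of 5 were lower in the fresh members of pool B, beside 35.1%, 30.1% and 35.9% of all genes lower. Gapdh, a glycolytic enzyme, was at 504, 1015 and 2082 rpm in the fresh members of pool A and at 137.5, 397 and 948 rpm in those of pool B, and 7, 6 and 5 of 8 glycolysis genes were lower at 6 h, at day 2 and in the fresh members of pool B. Against the fresh members of pool B, no interferon gene had enough reads at 6 h or day 2, and 1 (Pkm) and 0 of 6 glycolysis genes were lower, beside 23.4% and 20.9% of all genes. Against those of pool A, the day 1 and day 3 members had 5 and 4 of 5 interferon genes and 3 and 5 of 8 glycolysis genes lower, beside 33.1% and 30.7% of all genes. Within pool B no interferon gene had enough reads to be looked at, and 1 of 7 glycolysis genes (Pgam1) was higher at day 1, beside 12.8% of all genes, and 0 of 6 passed 2-fold at day 3.

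Of 14 identity genes looked at, 4 were higher in the fresh members of pool B than in those of pool A, among them Adgre1, Maf and Cd63, beside 10% of all genes. Fcgr1 and Mertk were lower, 2 of 14 and thus below the 35.9% of all genes. Maf, a factor of resident macrophages, was at 0, 36.6 and 281 rpm in the fresh members of pool A and at 0, 308 and 1970 rpm in those of pool B, a log2 ratio of 2.39. Within pool A Maf was in 2 of 5 members at 6 h, at most 48.02 rpm, and at 0, 457 and 1245 rpm at day 2. Stab1, too, was lower at 6 h there, with 0, 206.6 and 4775 rpm fresh, at most 606 rpm at 6 h and 0, 542 and 3491 rpm at day 2, and log2 ratios of -2.25 at 6 h and 3.12 for day 2 against 6 h. In pool B Stab1 was at 0, 759 and 2905 rpm fresh, 0, 261.3 and 1491 rpm at day 1, a log2 ratio of -1.43, and 0, 501 and 2927 rpm at day 3, which did not pass. Cd81, a tetraspanin of the surface, was higher at day 2 than in the fresh members of pool A and than at 6 h, by log2 ratios of 1.17 and 1.28. In pool A, 2 of 14 identity genes were higher and 2 lower at 6 h than fresh, beside 10.9% and 35.1% of all genes. At day 2, 4 were higher, Cd81 and Maf among them, and 0 lower, beside 4.47% and 30.1%. In pool B, 0 of 13 were higher and 3 lower at day 1 (Cd14, Maf and Lyz2), beside 12.8% and 15.9%. At day 3 none passed. With the other pool's fresh members neither Cd81 at day 2 nor Stab1 at day 1 passed 2-fold. Of 13 identity genes 1 was then higher and 2 lower at 6 h, beside 26.2% and 23.4% of all genes. At day 2, 1 was higher and 0 lower, beside 17.5% and 20.9%. Of 14, 3 were higher at day 1, Maf among them, and 2 lower, beside 7.16% and 33.1%. At day 3, 3 were higher and 1 lower, beside 4.41% and 30.7%.

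Some further genes were named for the size of their difference of medians over all genes. At 6 h in pool A they included Parvg, an adhesion protein of blood cells, with reads in 4 of 5 members against 2 of 7 fresh (log2 ratio 2.99), and Sesn1, a stress-induced regulator of growth signals (3 of 5 against 1 of 7, 3.86). Lower there were Irf1, a factor of the interferon response (2 of 5 against 7 of 7, -2.76), and Nfkbiz, which acts with NF-kB (1 of 5 against 7 of 7, -2.09). Of 4 listed NF-kB and inhibitor genes looked at, 3 were lower at 6 h (Nfkbia, Nfkbiz and Tnfaip3) and 2 at day 2. That was beside 35.1% and 30.1% of all genes. Against the fresh members of pool B it was 2 of 4 and 1 of 3, without Nfkbiz, beside 23.4% and 20.9%. Day 2 against 6 h had 2 of 3 higher (Nfkbia and Nfkbiz), beside 10.1%. In pool B 0 were lower. There 2 of 5 were higher at day 1 (Nfkb1 and Rel) and 1 of 4 at day 3 (Rel), beside 12.8% and 8.32%. With the fresh members of pool A, 1 of 5 was higher and 2 lower at day 1, beside 7.16% and 33.1%. At day 3, 0 of 4 were higher and 2 lower, beside 4.41% and 30.7%. At day 2 in pool A, Lpcat2, an enzyme of lipid mediators, was higher than fresh (10 of 14 against 1 of 7, 4.07). So was Hpgd, which breaks down prostaglandins (11 of 14 against 3 of 7, 2.71). Ifitm3, an interferon-induced protein, was lower (6 of 14 against 7 of 7, -2.32).

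In pool B the genes higher at day 1 included Il6ra, the receptor of interleukin-6 (13 of 17 against 2 of 8 fresh, log2 ratio 3.64), and Themis2, a signalling adaptor (15 of 17 against 3 of 8, 3.49). Irf5, a factor of inflammatory macrophages, was lower (6 of 17 against 6 of 8, -1.07), as was Ifngr2, a chain of the interferon gamma receptor (8 of 17 against 6 of 8, -2.18). At day 3, M6pr, which carries enzymes to lysosomes, was higher (18 of 30 against 3 of 8, 1.07), as was Rab7, a GTPase of late endosomes (19 of 30 against 3 of 8, 1.90). Nrros, a regulator of reactive oxygen in macrophages, was lower at day 3 (14 of 30 against 6 of 8, -1.25), and Stk17b, a kinase, as well (12 of 30 against 8 of 8, -1.45). Rab7 was also among the largest at day 1 (11 of 17 against 3 of 8, 1.33), where the same fresh members served.

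At day 4 only 3 members were left, too few for a comparison. The 2 of pool C had 3705 and 3859 genes, and the member of pool B had 1852. In the pair of pool C Hspa1a was at 217.4 and 2309 rpm, Fos at 5874 and 6137 rpm, Axl at 2023 and 3254 rpm and Apoe at 28730 and 33577 rpm. The member of pool B had 1512 rpm of Hspa1a, 100.6 rpm of Fos, 1969 rpm of Axl, 9114 rpm of Cx3cr1 and no read of Il1b.

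Day 3 of pool B is the one group with many C1q cells on both sides of the limit of 1500 genes, and the values of the 30 members and the 24 cells below it are given as a description, since the limit sorts cells by how much was read. C1qa had medians of 2482 and 2327 rpm, C1qb of 3805 and 2720 rpm and C1qc of 2720 and 2597 rpm in members and in cells with fewer genes. The share of counts on mitochondrial genes moved with the split, with medians of 2.70% and 5.08%, and its part in these values was not tested. Csf1r was read in 30 of 30 and 18 of 24, with medians of 3462 and 2098 rpm. Mrc1 was read in 22 of 30 and 14 of 24, with medians of 449 and 59.5 rpm, Cx3cr1 in 29 of 30 and 17 of 24, with medians of 2265 and 44.2 rpm, and Stab1 in 26 of 30 and 11 of 24, with medians of 501 and 0 rpm. Hspa1a was read in 26 of 30 and 8 of 24. Some abundant genes had higher medians below the limit. Fth1 had 2261 and 4301 rpm, Ftl1 2508 and 4370 rpm and Ighm 1268 and 3323 rpm in members and in cells with fewer genes. The cells below the limit also had fewer counts, with a median of 440034 against 764885.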

How the data were processed

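Cd45+ single cells from fresh or cold-preserved kidneys of CD1 mice were sequenced as full-length cDNA. The authors trimmed reads to 75 bp, depleted duplicates with picard, aligned to GRCm38 with STAR and counted reads per gene in HTSeq (intersection-strict mode, without regard to strand, so overlapping and antisense genes are uncertain); cells under 1000 reads were dropped. Raw counts were deposited, 1 column a cell, with software versions not stated. Of the members' counts, 0.000138% lay on 96 ERCC rows and 0.102% on a vector row, and these were set aside, which left 46603 gene rows.

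Counts were divided by a cell's total on genes (rpm), with log2(rpm + 1) as the log value, in python 3.11.15 with numpy 2.4.6, scipy 1.17.1 and pandas 2.3.3. Counts of members were summed per timepoint and pool. A gene was looked at with at least 50 counts over both sums and a read in at least 50% of the members of either side (5 or more a side). It passed 2-fold where the log2 ratio of the sums and the difference of the cell medians of log2(rpm + 1) were both at least 1 in the same direction; a sum under 3 counts was set to 3. Named genes were listed genes read in at least 50% of members or past 2-fold, and the 8 largest differences of medians per direction; other listed genes, Ighm, and the day 4 values were named after their values were seen. Intervals (Clopper-Pearson, 95%) are over cells and cover counting error only, because a timepoint in a pool counts as at most 1 sample. Reads lack molecular identifiers and do not stand for independent molecules. Other scalings used factors of edgeR 4.0.16 (TMM) and DESeq2 1.42.0 in R 4.3.3. The fold rule was also run on counts simulated from a common profile, which lack the spread among real members. That run cannot tell how often unchanged genes pass the rule here. The members and gene lists were chosen with earlier results of these data known. A few listed genes are not reported here.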

Additional observations from a re-analysis of the deposited data

How the results depend on the processing

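No paired analysis was possible because no label pairs cells or timepoints by animal, and no test was made. Raising the limit to 1800 genes left 68 members. With the difference of mean log2(rpm + 1) as the sole criterion, the genes past 2-fold in either direction were 2074 for 6 h, 2096 for day 2, 965 for day 1 and 839 for day 3 against fresh of the same pool, 896 for day 2 against 6 h, 569 for day 3 against day 1 and 2220 between the fresh groups. With all 15 fresh members as the reference they were 812 for 6 h and 496 for day 2. With the other pool's fresh members they were 1079 for day 1 and 924 for day 3.

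Of the genes past 2-fold between day 2 and 6 h, 31.4% were higher by totals, 48.8% with TMM and 47.9% with the size factors of DESeq2, and the median log2 ratio of all genes went from -0.26 to 0.14 and 0.13. TMM moved that median from -0.30 to -0.61 at 6 h, from -0.12 to 0.03 at day 1 and from -0.10 to 0.10 at day 3, each against fresh. Without the member of most counts of a gene on each side, 6 h gave 290 higher and 1513 lower, and the higher genes went from 44.6% to 54.3% of those past 2-fold at day 1 (342 genes), from 33.9% to 49.6% at day 3, from 31.4% to 42.9% for day 2 against 6 h and from 34.2% to 44.3% for day 3 against day 1. Of the single-gene ratios followed over the alternatives, 20 crossed the 2-fold rule, and 0 of those past 2-fold in the main setting changed direction. Changes of sign in ratios short of 2-fold were not counted. The Fos ratio at day 1, negative against its own pool, was 0.17 against the fresh members of pool A. Groups held 5 to 30 cells.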
